A study of Mus musculus with 4 samples.

Results

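Messenger RNA of 10 immune checkpoint and exhaustion genes was measured in single CD45+ immune cells sorted from mouse gliomas. They are the receptors Pdcd1 (PD-1), Ctla4, Lag3, Havcr2 (TIM-3), Tigit and Cd96, the PD-1 ligands Cd274 (PD-L1) and Pdcd1lg2 (PD-L2), the transcription factor Tox and the ectoenzyme Entpd1 (CD39). The genes were chosen by name, and they are 10 of the 31253 genes in the count matrices. The mice were C57Bl/6, either WT or CaMKK2 KO, the latter a germline deletion of the calcium/calmodulin-dependent kinase kinase CaMKK2 in every cell of the host, so that no single cell type is targeted. Both groups were young adults, carried an intracranial CT2a tumor, a syngeneic glioma model, and were harvested at day 14, and the labels name no treatment. Live CD45+ cells of 4 mice per genotype carried hashtag antibodies that identified the mouse, and the 4 mice of a genotype shared 1 channel of the 10x 3′ assay, so genotype and channel cannot be told apart. Levels are UMIs (counted molecules) of a gene relative to all UMIs of a cell class in a mouse, scaled to CPM, and n is the number of mice.

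Checkpoint receptors are induced on activated lymphocytes and dampen signaling when they meet their ligands. PD-1 binds PD-L1 and PD-L2, and CTLA-4 competes with CD28 for CD80 and CD86. TIGIT and CD96 bind nectin-like molecules such as the poliovirus receptor, and LAG-3 binds MHC class II. TIM-3 has several ligands, galectin-9 among them. Under chronic antigen, CD8+ T cells acquire several of these receptors together with the factor TOX, and a smaller TCF-1-positive fraction (encoded by Tcf7) retains the capacity to proliferate. CD39 degrades extracellular ATP to AMP, from which CD73 (Nt5e) makes immunosuppressive adenosine. In brain tumors, PD-L1 is carried by tumor cells and by infiltrating myeloid cells, and tumor cells were not in the CD45+ sort.

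In the GENCODE M21 annotation of GRCm38 (mm10), the receptor genes Pdcd1 and Ctla4 lie apart on one chromosome, Pdcd1 (chromosome 1, 94038305 to 94052553, minus strand) and Ctla4 (chromosome 1, 60887000 to 60915832, plus strand). Tigit and Cd96 lie likewise on another, Tigit (chromosome 16, 43648867 to 43664146, minus strand) and Cd96 (chromosome 16, 46035657 to 46120251, minus strand). The other receptors are Lag3 (chromosome 6, 124904361 to 124911705, minus strand) and Havcr2 (chromosome 11, 46454935 to 46481255, plus strand). The ligand genes were neighbors on one strand, Cd274 (chromosome 19, 29367455 to 29388095, plus strand) and Pdcd1lg2 (chromosome 19, 29410919 to 29471161, plus strand), with 22823 bases between them. The remaining members were Tox (chromosome 4, 6686353 to 6991557, minus strand) and Entpd1 (chromosome 19, 40612366 to 40741602, plus strand). No other gene of the matrices overlapped a member on its own strand. The promoters of the ligand genes are shown because both ligands had higher values in CaMKK2 KO macrophages and monocytes, short of the threshold and low for Pdcd1lg2. They are RefSeq sequences of build GRCm38.p6, plus strand, 5′ to 3′, from 250 bases before to 50 bases after the start, and capitals mark the match to GAAANNGAA, the core of an interferon response element, here on the reverse strand.
Cd274 (chr19:29367188-29367487): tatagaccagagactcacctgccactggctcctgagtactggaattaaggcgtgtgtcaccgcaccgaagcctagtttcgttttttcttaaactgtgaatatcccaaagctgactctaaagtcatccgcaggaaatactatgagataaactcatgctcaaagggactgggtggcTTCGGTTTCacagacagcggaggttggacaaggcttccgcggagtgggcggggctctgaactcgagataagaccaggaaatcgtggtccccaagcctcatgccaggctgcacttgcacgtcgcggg
Pdcd1lg2 (chr19:29410669-29410968): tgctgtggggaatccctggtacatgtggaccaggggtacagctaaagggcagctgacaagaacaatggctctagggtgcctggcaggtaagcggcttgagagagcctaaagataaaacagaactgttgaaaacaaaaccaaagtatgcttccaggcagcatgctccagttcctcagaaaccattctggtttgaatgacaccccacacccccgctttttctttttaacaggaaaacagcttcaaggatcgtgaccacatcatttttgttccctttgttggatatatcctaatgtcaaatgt
Cd274 held 1 such match, at position -76 from the start, and Pdcd1lg2 held 0. Of the 8 members whose promoter was matched, Cd274, Cd96 and Ctla4 held GAAANNGAA on either strand, against 8.56% of 32851 promoters of this length. The STAT motif TTCNNNGAA, searched on both strands and able to share its last bases with GAAANNGAA, was in Cd96 alone, against 8.30%. A version of the interferon motif extended by a further A was in 0 of the 8 members, against 3.44%. These motifs were chosen after the sequences had been seen, and a match describes letters, not binding.

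After filtering, 5181 WT and 5684 CaMKK2 KO cells were used, 1037 to 1667 per mouse, with a median of 12739 and 11411 UMIs per cell. The libraries shared 42 cell barcodes, 8 of them among the cells used. Camkk2 stood at 27.9 to 37.6 CPM in the WT mice and at 13.5 to 22.8 CPM in the CaMKK2 KO mice. These are 3′ tags and the deleted exons are not given in the labels, so this value does not check the deletion. Cells were assigned to classes by their marker UMIs, 4619 WT and 5135 CaMKK2 KO cells in all. Markers that the gates did not use were present: Ikzf2 stood at 2003 and 1796 CPM and Il2ra at 1031 and 668 CPM in WT and CaMKK2 KO regulatory T cells. WT mouse 1 stood apart by its T cells, with 16 CD8 T cells, 6 regulatory T cells and 0 conventional CD4 T cells, and it was not in the fit of the last class. The number of conventional CD4 T cells was 12 to 13 in the other WT mice and 36 to 94 in the CaMKK2 KO mice. The methods give different origins, purchase for C57BL/6J mice and a collaborator for the CaMKK2 KO line, so origin and genotype cannot be told apart either. The p-values of genotype comparisons set the whole difference, origin and channel included, against the spread between mice of a genotype.

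The receptors of the PD-1 and CTLA-4 pathways were T cell genes, whereas Lag3, Havcr2 and Entpd1 were shared with myeloid cells. Averaged over the mice of both genotypes, Pdcd1 was highest in CD8 T cells (321 ± 61.1 CPM, SD, n = 8), followed by conventional CD4 T cells (229.9 ± 109 CPM, n = 7) and regulatory T cells (151 ± 56.2 CPM, n = 8). Neither step exceeded the spread between mice (2-sided exact paired sign-flip p = 0.156 and 0.219, n = 7). CD8 T cells stood above conventional CD4 T cells in 5 of 7 mice. They did so in every WT mouse compared, whereas the CaMKK2 KO mice were divided, so this spread includes the genotype. Ctla4 was ordered the other way, from 1473 ± 317 CPM in regulatory T cells through 722 ± 268 CPM in conventional CD4 T cells to 253 ± 92 CPM in CD8 T cells and 48.6 ± 14.1 CPM in NK cells. Tigit followed Ctla4 at a low level, with 30.1 ± 13 CPM in regulatory T cells, 15.7 ± 3.998 CPM in conventional CD4 T cells, 10.1 ± 6.44 CPM in CD8 T cells and 7.35 ± 2.93 CPM in NK cells. Cd96, which shares ligands with TIGIT, was highest in CD8 T cells (109.8 ± 23.6 CPM), then conventional CD4 T cells (69.2 ± 29.2 CPM), NK cells (61.7 ± 9.67 CPM) and regulatory T cells (33.2 ± 17.1 CPM). Tox stood side by side in conventional CD4, CD8 and regulatory T cells (145 ± 47, 127 ± 74.4 and 115 ± 27.1 CPM) and stood at 23.6 ± 7.34 CPM in NK cells.

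Lag3, which encodes the MHC class II receptor, was prominent in microglia as well as in T cells. Over both genotypes it stood at 329 ± 132 CPM in conventional CD4 T cells, 316 ± 109 CPM in CD8 T cells, 277 ± 63.5 CPM in microglia and 228 ± 90.9 CPM in regulatory T cells. Conventional CD4 T cells stood above CD8 T cells in 4 of 7 mice, mostly CaMKK2 KO mice (2-sided exact paired sign-flip p = 0.641). NK cells (36.2 ± 18.9 CPM) and macrophages (18 ± 10.4 CPM) lay far below, and the 77 plasmacytoid dendritic cells, absent from WT mouse 1, averaged 342 CPM. Havcr2 was broad, with 168 ± 34.2 CPM in classical monocytes, 147 ± 78.8 CPM in non-classical monocytes, 135 ± 37.1 CPM in microglia, 132 ± 46 CPM in conventional CD4 T cells and 125 ± 40.2 CPM in CD8 T cells. Entpd1 was highest in microglia (175 ± 38.8 CPM), and classical monocytes, macrophages and the 3 main T cell classes lay between 83.2 and 107 CPM. The ligands peaked in mature dendritic cells, the migratory state that expresses Ccr7: Cd274 stood at 628 ± 120.1 CPM and Pdcd1lg2 at 151 ± 61.9 CPM there. Cd274 was next highest in non-classical monocytes (186 ± 93.6 CPM), classical monocytes (114 ± 70.1 CPM) and macrophages (105 ± 69.9 CPM). Pdcd1lg2 was next highest in regulatory T cells (73.7 ± 63.1 CPM), where the highest value was that of WT mouse 1 with 6 cells. Its step to conventional CD4 T cells (44.2 ± 23.3 CPM) did not exceed the spread between mice (2-sided exact paired sign-flip p = 0.313, n = 7). Its level in NK cells (40.3 ± 7.85 CPM) and CD8 T cells (39.5 ± 3.65 CPM) was above that in macrophages (6.7 ± 6.1 CPM).

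**Figure D1:**
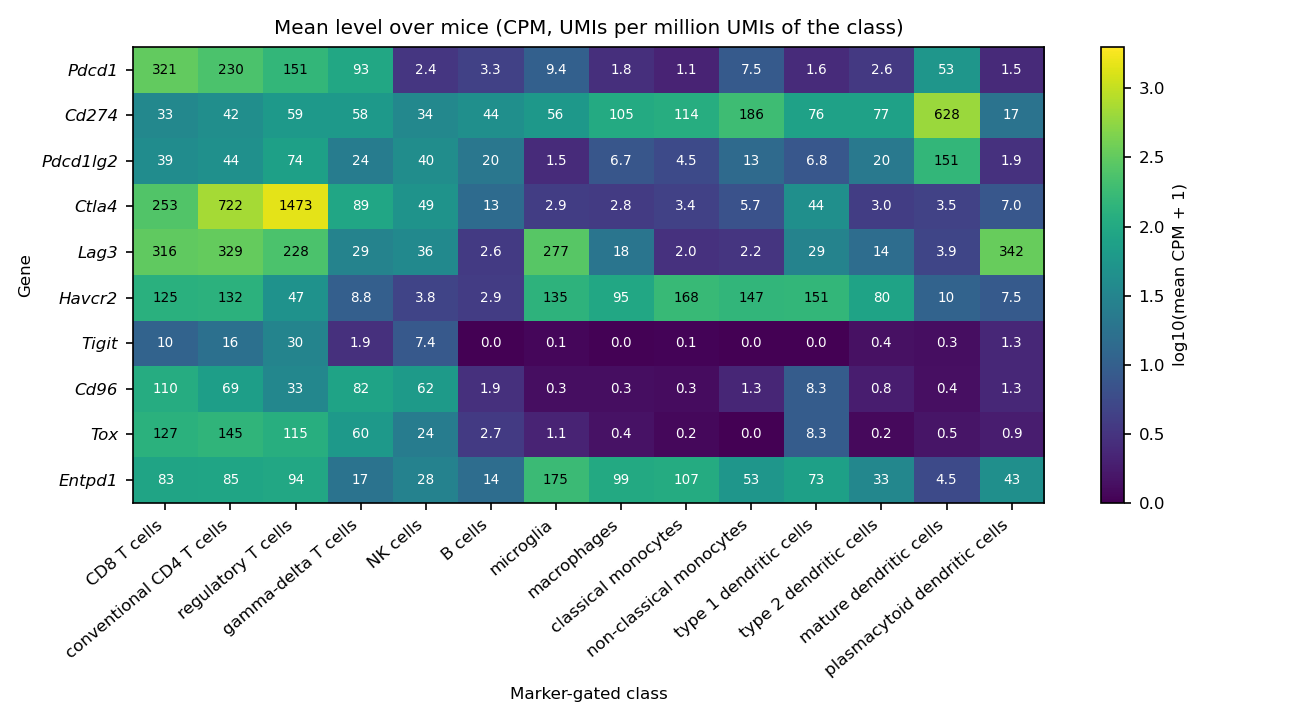
Mean level of each of the 10 genes over the mice (CPM, printed in each cell; color, log10 of mean CPM + 1) in the 14 marker-gated classes. Pdcd1, Ctla4, Tigit, Cd96 and Tox are concentrated in the T cell columns, Lag3 in microglia (277 CPM) lies between CD8 (316 CPM) and regulatory T cells (228 CPM), and both ligands peak in mature dendritic cells.

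When the classes were ordered by the mean level of each gene, none of the 100 neighboring pairs passed an adjusted p of 0.05 in the 2-sided exact paired sign-flip test over mice, whose smallest p with 8 mice is 0.00781 and became 0.0521 after adjustment over the 100 pairs. With 7 mice, where conventional CD4 T cells enter, the smallest p is 0.0156. The smallest p passes the adjustment only when enough of the 100 pairs reach it together. The absence of passing pairs therefore does not show that the classes were alike. The steps that reached the smallest p, with the higher class above the lower in 8 of 8 mice, included Cd274 from mature dendritic cells to non-classical monocytes and Ctla4 from CD8 T cells to NK cells. They also included Lag3 from microglia to regulatory T cells and from these to NK cells, Tox from regulatory T cells to NK cells, and Tigit from NK cells to type 2 dendritic cells. Regulatory T cells exceeded conventional CD4 T cells in Ctla4 in 7 of 7 mice (exact p = 0.0156, adjusted p = 0.071). By contrast, neighbors in the Havcr2 order, from classical monocytes to CD8 T cells, differed by less than the spread between mice, with exact p-values of 0.203 to 0.984. Tox did not separate conventional CD4, CD8 and regulatory T cells (exact p = 0.5 and 0.82).

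The share of cells with a UMI followed the levels. With every cell thinned to 2000 UMIs, Pdcd1 was detected in 42.1% of 737 CD8 T cells (95% exact interval 38.5 to 45.7%), Lag3 in 42.3%, Ctla4 in 31.3%, Tox in 24.2%, Cd96 in 21.6%, Havcr2 in 16.6% and Tigit in 2.04%. In B cells, taken as the class that should lack these receptors, the shares were 0.278% for Pdcd1, 0.556% for Lag3, 0.833% for Ctla4 and 0 of 360 cells for Havcr2, which allows up to 0.833% of cells with a UMI at this depth. The median depth was 11297 UMIs in CD8 T cells and 4215 in B cells before thinning, and without thinning the Pdcd1 shares were 81.2% and 1.39%. Regulatory T cells had Ctla4 in 82.2% of cells, microglia had Lag3 in 37.6%, and mature dendritic cells had Cd274 in 69.2%. Intervals cover counting error only.

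Within CD8 T cells, the Tcf7-positive cells carried less of most members. They were compared with the Tcf7-negative cells that also lacked high Gzmc and Gzmf, granzymes of strongly activated killer cells. The subsets held 68 and 577 cells, with 4 to 19 Tcf7-positive cells per mouse and a median of 8506 and 10902 UMIs. Of the 10 members, 7 were lower in Tcf7-positive cells and 0 were higher at an unadjusted exact p under 0.05 (2-sided paired sign-flip test, n = 8), against 11.6% lower and 2.88% higher among 8408 genes. Pdcd1 stood in Tcf7-positive cells at 83.5, 56.2, 220.0 and 169 CPM in the WT mice and 0, 25.2, 0 and 67.8 CPM in the CaMKK2 KO mice. In the other cells it stood at 706, 323, 377 and 459 CPM and 342, 244, 277 and 359 CPM. Every mouse was lower in its Tcf7-positive cells (exact p = 0.00781). Havcr2 was at 0 in the Tcf7-positive cells of 6 mice, with 3 UMIs in all and a pooled 4.27 CPM, against 109.6 CPM in the other cells. Lag3 was 112 against 349.8 CPM pooled over mice, Entpd1 14.2 against 88.9 CPM and Tox 81.1 against 173 CPM, with 79, 10 and 57 UMIs in the Tcf7-positive cells. Like Pdcd1, these 3 and Havcr2 were lower in 8 of 8 mice (exact p = 0.00781 each, the smallest possible).

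Ctla4 (127 against 280.1 CPM, exact p = 0.0313, n = 8) and Pdcd1lg2 (31.3 against 40.6 CPM, exact p = 0.0234, n = 8) were lower in 7 of 8 mice. They held 89 and 22 UMIs in the Tcf7-positive cells, so the Pdcd1lg2 values by mouse rest on few UMIs. Cd96 did not follow the other receptors, with 102 CPM in Tcf7-positive and 118 CPM in the other cells (exact p = 0.781, n = 8). Cd274 (exact p = 0.633) and Tigit (exact p = 0.109), with 27 and 5 UMIs in the Tcf7-positive cells, did not pass either. The 94 cells high in Gzmc and Gzmf had pooled levels close to those of the other Tcf7-negative cells in Pdcd1 (353 CPM) and Lag3 (359 CPM). They had 157 CPM of Havcr2 and 92.4 CPM of Tox, a contrast that was not tested.

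**Figure D2:**
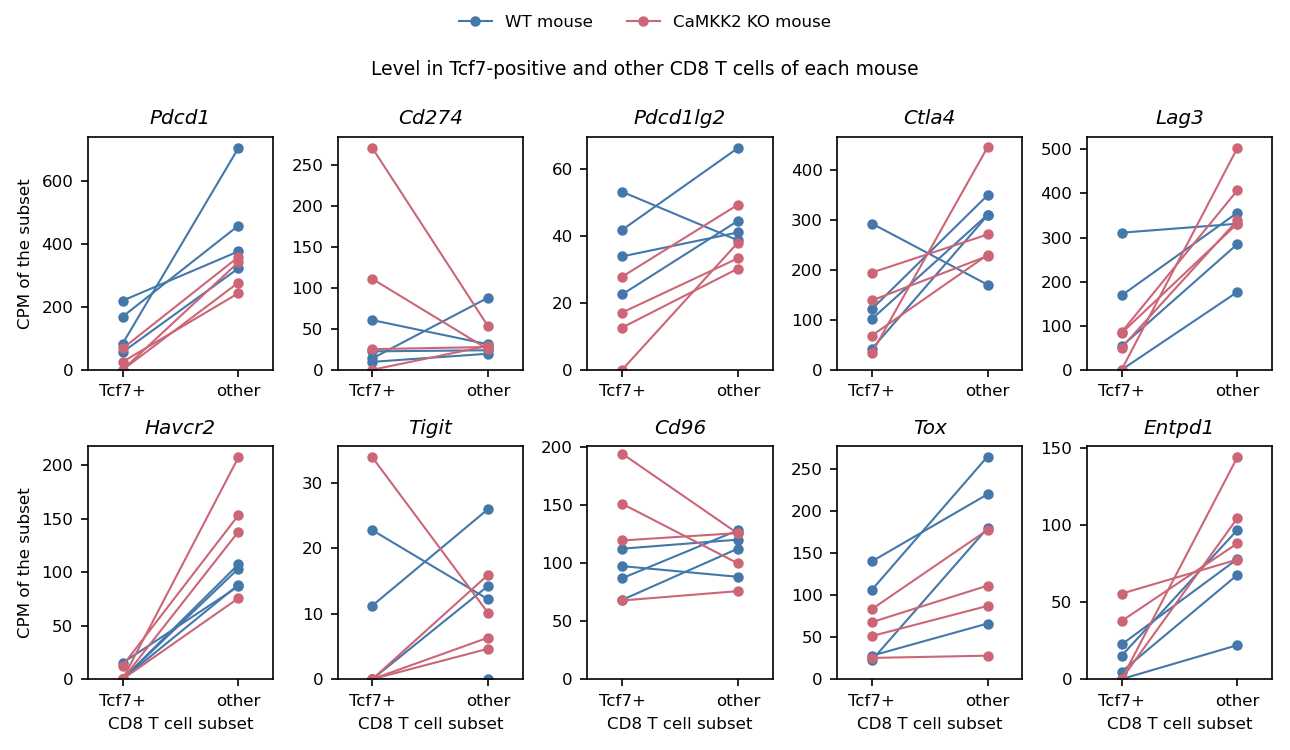
Level of each gene (CPM of the subset) in Tcf7-positive and other CD8 T cells, 1 line per mouse (blue, WT; red, CaMKK2 KO). The lines of Pdcd1, Lag3, Havcr2, Tox and Entpd1 run upward in all 8 mice, whereas those of Cd96 and Cd274 run both ways.

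After thinning, receptors were detected together only in part of the CD8 T cells, and this part depends on depth. Without thinning, the mean number of the 6 receptors per cell was 3.29 in WT and 3.67 in CaMKK2 KO mice. With thinning it was 1.41 and 1.55, so a receptor without a UMI may still be expressed. At 2000 UMIs per cell, 18.2% of the 737 cells had a UMI of 0 of the 6 receptors, 31.3% of 1, 30.1% of 2, 15.1% of 3, 4.88% of 4 and 0.407% of 5. In a separate thinning draw, Lag3 was detected in 49.3% of the 304 cells with a Pdcd1 UMI and in 36.3% of the 433 without, Ctla4 in 39.1% and 31.9%, Havcr2 in 18.1% and 16.4%, and Slamf6, a surface marker of progenitor-like exhausted cells, in 1.64% and 6%. These shares describe cells that share mice and were not tested.

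Each member was set against 11176 genes for the likeness of its pattern over the means of the 14 classes (Pearson r of log2(CPM + 1)); the points share libraries and normalization, and the values are descriptive. The nearest genes included components of T cell signaling such as Cd3d, Zap70 and Skap1: Pdcd1 was nearest Tesc (r = 0.91), Sdcbp2 (r = 0.90) and Cd3d (r = 0.90), Ctla4 nearest Tox (r = 0.96), Rnf125 (r = 0.96) and Nol10 (r = 0.95) and Cd96 nearest Skap1 (r = 0.98), Fasl (r = 0.97) and Nkg7 (r = 0.97). Tox was nearest Rnf125 (r = 0.97), Ctla4 (r = 0.96) and Zap70 (r = 0.96), and Tox and Ctla4 were thus among the 3 nearest genes of each other. Tigit was nearest Rgs16 (r = 0.95), Sv2c (r = 0.95) and C230024C17Rik (r = 0.93). Lag3, split between T cells, microglia and plasmacytoid dendritic cells, was nearest Atpaf1 (r = 0.92), Phpt1 (r = 0.91) and Slc43a3 (r = 0.89). Havcr2 was nearest Xpnpep1 (r = 0.87), Usf2 (r = 0.82) and Tnfsf13b (r = 0.81), and Entpd1 nearest Atp2a2 (r = 0.89), Bscl2 (r = 0.88) and Rnf7 (r = 0.86). Of the ligands, Cd274 was nearest Gyg (r = 0.94), Zfand3 (r = 0.92) and Chp1 (r = 0.92), and Pdcd1lg2 nearest Supt4a (r = 0.94), Prps1 (r = 0.92) and Stat4 (r = 0.92).

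To ask whether the host genotype moved these genes, counts were summed per mouse and class and CaMKK2 KO was compared with WT. A member was tested in a class where it held at least 50 UMIs, which gave 63 gene and class combinations in 9 classes and left 27 untested. Of these, 4 passed an adjusted p of 0.05: Lag3 rose in NK cells, Havcr2 rose and Lag3 fell in macrophages, and Ctla4 had higher values in macrophages. The Ctla4 values were near the limit of detection, with 30 WT and 81 CaMKK2 KO UMIs, and are not read as expression. An unadjusted edgeR p under 0.05 was found in 25 combinations. Among all genes tested, this held for 1076 of 8737 in CD8 T cells and 503 of 5384 in regulatory T cells. It held for 627 of 5475 in conventional CD4 T cells and 1763 of 9459 in NK cells. Macrophages had 2449 of 11124, microglia 1475 of 9302 and classical monocytes 1587 of 9708. Type 2 dendritic cells had 1065 of 7547 and mature dendritic cells 484 of 4424. The mice of the genotypes did not overlap in 15 combinations, 12 of them higher and 3 lower in CaMKK2 KO mice. The shares of all genes called or not overlapping are given with each class.

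**Figure D3:**
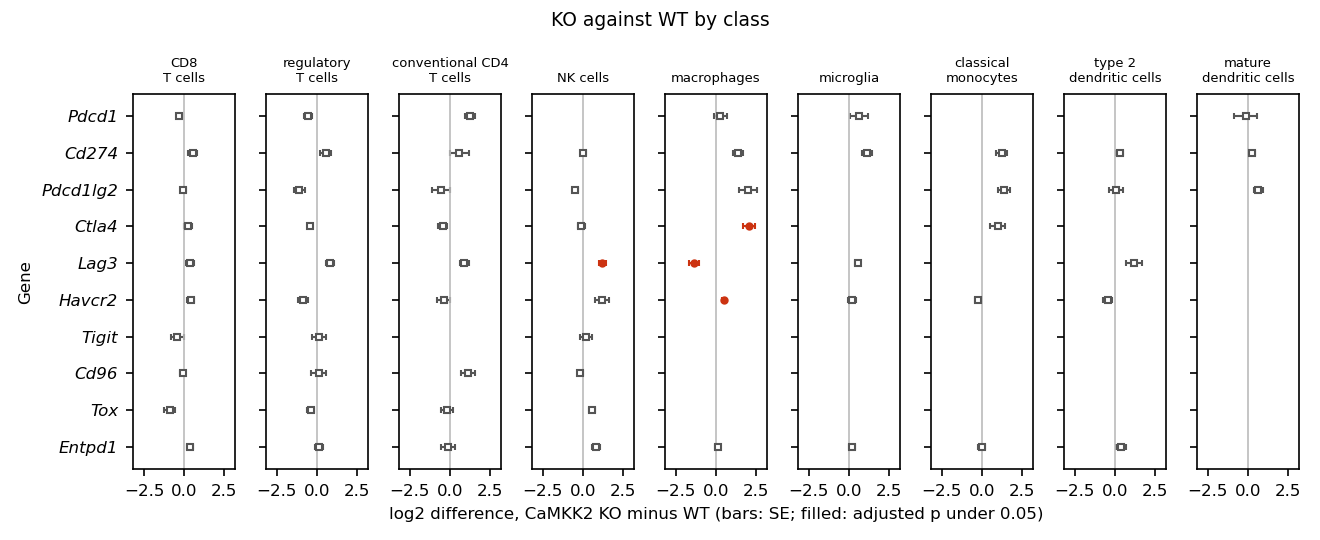
Log2 difference between CaMKK2 KO and WT mice for each gene tested in each of 9 classes (squares, adjusted p of 0.05 or more; filled red circles, adjusted p under 0.05; bars, SE, hidden where narrower than the symbol). The 4 filled points are Lag3 in NK cells (1.21) and Ctla4 (2.05), Lag3 (-1.39) and Havcr2 (0.47) in macrophages. Ctla4 there is near the limit of detection. Cd274 lies right of 0 in macrophages, microglia and classical monocytes without passing.

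CD8 T cells showed no difference that passed. None of the 10 members was called with edgeR (1 with an unadjusted p under 0.05; 0 with DESeq2) and none had mice that did not overlap, against 0.904% of 8737 genes called and 8.24% not overlapping. Tox stood at 60.4, 141, 244 and 205 CPM in the WT mice and 79.7, 23.8, 159.7 and 103 CPM in the CaMKK2 KO mice. The genotypes overlapped, with the lowest value in CaMKK2 KO mouse 2 and the highest in WT mouse 3 (log2 difference -0.90 (SE 0.34), adjusted p = 0.258). Pdcd1 stood at 295, 323, 369 and 417 CPM in the WT mice and 329.8, 215, 274 and 342 CPM in the CaMKK2 KO mice, again overlapping (log2 difference -0.30 (SE 0.15), adjusted p = 0.448). Lag3 stood at 101, 376, 321 and 254 CPM in the WT mice and 409, 288, 321 and 457 CPM in the CaMKK2 KO mice, and WT mouse 1, with 16 cells, was the low one (log2 difference 0.37 (SE 0.22), adjusted p = 0.548). The remaining members had log2 differences of 0.54 for Cd274, -0.04 for Pdcd1lg2, 0.23 for Ctla4, 0.42 for Havcr2, -0.42 for Tigit, -0.08 for Cd96 and 0.37 for Entpd1, with adjusted p-values of 0.479 to 1. The number of the 6 receptors detected per CD8 T cell, thinned to 2000 UMIs, averaged 0.688, 1.57, 1.73 and 1.66 in the WT mice and 1.83, 1.26, 1.43 and 1.68 in the CaMKK2 KO mice. The means were 1.41 ± 0.49 and 1.55 ± 0.25 (SD, n = 4; difference 0.135, 2-sided exact permutation p = 0.743), and without WT mouse 1 the difference was -0.107. Havcr2 was detected in 18.9 ± 13% of the Pdcd1-positive CD8 T cells of WT and in 19.4 ± 10.2% of those of CaMKK2 KO mice (n = 4, exact permutation p = 1). WT mouse 1 had it in 0 of 4 such cells, and without this mouse the WT mean was 25.2%. Without thinning the shares were 54.4% in WT and 65.7% in CaMKK2 KO mice (exact permutation p = 0.143, n = 4). Slamf6 without Havcr2, a transcript profile like that of progenitor-like exhausted cells, made up 7.88 ± 11.5% of the Pdcd1-positive cells of WT mice, 1 of 4 cells in mouse 1 among them. The CaMKK2 KO mice had 0% (n = 4, exact permutation p = 0.143). At 2000 UMIs per cell, a cell without a Havcr2 UMI may still express the gene. With outlying cells kept the difference of -7.88 percentage points was -0.20 (exact permutation p = 1, n = 4).

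In regulatory T cells, 0 of 10 members were called with edgeR (5 with an unadjusted p under 0.05; 0 with DESeq2), against 0.446% of 5384 genes. Pdcd1lg2 was the member whose mice did not overlap, against 6.26% of all genes, at 222, 89.97, 66.2 and 58.3 CPM in the WT mice and 43.2, 26.3, 35.5 and 48.4 CPM in the CaMKK2 KO mice (log2 difference -1.1 (SE 0.35), adjusted p = 0.235). These values rest on 108 UMIs in all, and WT mouse 1, the highest, had 6 cells; without it the log2 difference was -0.93 (adjusted p = 0.324). Lag3 stood at 127, 259, 137 and 113 CPM in the WT mice and 298, 237, 317 and 339 CPM in the CaMKK2 KO mice. WT mouse 2 reached the range of the CaMKK2 KO mice (log2 difference 0.83 (SE 0.25), adjusted p = 0.185), and without that mouse the log2 difference was 1.25 and passed (adjusted p = 0.0255). Ctla4, the defining receptor of these cells, stood at 1935, 1619, 1424 and 1837 CPM in the WT mice and 1234, 1232, 1495 and 1008 CPM in the CaMKK2 KO mice, with the genotypes overlapping (log2 difference -0.43 (SE 0.13), adjusted p = 0.224). The others had log2 differences of -0.56 for Pdcd1, 0.53 for Cd274, -0.88 for Havcr2, 0.12 for Tigit, 0.10 for Cd96, -0.40 for Tox and 0.12 for Entpd1 (adjusted p-values of 0.393 to 0.995). The 7 macrophage markers summed to 213 to 381 CPM in WT and 116 to 177 CPM in CaMKK2 KO regulatory T cells and the 3 Cd3 genes to 2110 to 2583 and 2637 to 2826 CPM, both without overlap, and their part in the levels was not tested.

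In conventional CD4 T cells, 3 WT and 4 CaMKK2 KO mice were compared, and 0 of 9 members were called with edgeR (3 with an unadjusted p under 0.05; 0 with DESeq2), against 0.438% of 5475 genes. Pdcd1 and Cd96 had mice that did not overlap, against 14.7% of all genes. Pdcd1 stood at 74.7, 154 and 160.5 CPM in the WT mice and 277, 253, 408 and 282 CPM in the CaMKK2 KO mice, every CaMKK2 KO mouse lying above the 3 WT mice (log2 difference 1.24 (SE 0.32), adjusted p = 0.123). Cd96 stood at 59.8, 34.2 and 29.2 CPM in the WT mice and 76.8, 83.2, 99.7 and 101 CPM in the CaMKK2 KO mice (log2 difference 1.11 (SE 0.44), adjusted p = 0.337). These WT mice held 66910, 58408 and 68540 UMIs in 12 to 13 cells each, so their Pdcd1 and Cd96 values rest on few UMIs. The median depth was 4745 UMIs per cell in WT and 7411 in CaMKK2 KO mice. Lag3 stood at 135, 342 and 189.7 CPM in the WT mice and 524, 329, 415 and 365 CPM in the CaMKK2 KO mice, with WT mouse 3 inside the CaMKK2 KO range (log2 difference 0.89 (SE 0.29), adjusted p = 0.264). The others had log2 differences of 0.59 for Cd274, -0.57 for Pdcd1lg2, -0.45 for Ctla4, -0.39 for Havcr2, -0.18 for Tox and -0.16 for Entpd1 (adjusted p-values of 0.576 to 0.944), and Tigit was not tested. The 7 macrophage markers summed to 239 to 377 CPM in these WT cells and 77.4 to 166 CPM in the CaMKK2 KO cells, and the 3 Cd3 genes to 2612 to 3030.4 and 3398 to 3877 CPM. Their part in the levels was not tested.

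NK cells gave the clearest difference of the lymphoid classes. Lag3 stood at 13.6, 29.4, 18.4 and 27.3 CPM in the WT mice and 40.8, 57.3, 68.9 and 33.9 CPM in the CaMKK2 KO mice. All CaMKK2 KO mice lay above all WT mice, and Lag3 rose (log2 difference 1.21 (SE 0.23), adjusted p = 0.0087), the only 1 of 9 members called, against 4.07% of 9459 genes. It passed in 15 of 16 alternatives, the exception being the fit on cells weighted equally (adjusted p = 0.069). Besides Lag3, 2 members had mice that did not overlap, against 11.2% of all genes. Entpd1 stood at 11, 26, 25.7 and 17.3 CPM in the WT mice and 34.1, 43.5, 28.2 and 39.6 CPM in the CaMKK2 KO mice, higher in CaMKK2 KO mice (log2 difference 0.81 (SE 0.23), adjusted p = 0.0609). Pdcd1lg2 stood at 45.8, 46.4, 44.8 and 49.98 CPM in the WT mice and 26.1, 35.1, 36.2 and 38.2 CPM in the CaMKK2 KO mice, lower in CaMKK2 KO mice (log2 difference -0.47 (SE 0.15), adjusted p = 0.0853). Without CaMKK2 KO mouse 3 both passed (adjusted p = 0.0148 and 0.044), in a fit that called 1041 of 9050 genes, against 385 with all mice. The remaining log2 differences were 0.03 for Cd274, -0.12 for Ctla4, 1.19 for Havcr2, 0.17 for Tigit, -0.17 for Cd96 and 0.55 for Tox, with adjusted p-values of 0.15 to 0.969, and Pdcd1 was not tested. The 4 classical monocyte markers summed to 311 to 472 CPM in WT and 709.8 to 832 CPM in CaMKK2 KO NK cells and the 3 Cd3 genes to 29.5 to 33.9 and 32.1 to 53.7 CPM. The 7 macrophage markers ran the other way, at 136 to 167 CPM in WT and 83.5 to 119 CPM in CaMKK2 KO NK cells, and Lyz2 and Csf1r overlapped, at 84.0 to 106 and 81.4 to 119 CPM. In CD8 T cells the 4 classical monocyte markers summed to 1072 to 1420 CPM in WT and 1256 to 2748 CPM in CaMKK2 KO mice, with the genotypes overlapping, unlike in NK cells. The part of all these markers in the Lag3 difference was not tested.

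To see which NK cells carried Lag3, they were split by the summed level of Gzmc and Gzmf, a division chosen after the values had been seen. In the 348 high cells, Lag3 stood at 17.5, 40.9, 25.7 and 38.1 CPM in the WT mice and 85.9, 102, 86.5 and 90.9 CPM in the CaMKK2 KO mice. The genotypes did not overlap, as for 4.81% of 7999 genes in that direction, and the means were 30.6 ± 10.9 and 91.3 ± 7.51 CPM (SD, n = 4, 2-sided exact permutation p = 0.0286, the smallest possible). In the 1051 other cells, the values were 9.09, 13.5, 9.95 and 12.7 CPM and 16.4, 40.3, 46.9 and 19.5 CPM. These did not overlap either (exact permutation p = 0.0286, n = 4), as for 5.17% of 8428 genes. Several values rest on few UMIs: the WT values of the other cells rest on 5, 10, 7 and 12 Lag3 UMIs. In the high cells, WT mouse 1 held 11 Lag3 UMIs and CaMKK2 KO mouse 4 held 13 in 9 cells. The high cells made up 28.3 to 34.2% of NK cells in WT mice and 9.09 to 34.8% in CaMKK2 KO mice (exact permutation p = 0.143, n = 4). These are the cells and mice of the comparison above, so the division adds no independent evidence of the difference.

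**Figure D4:**
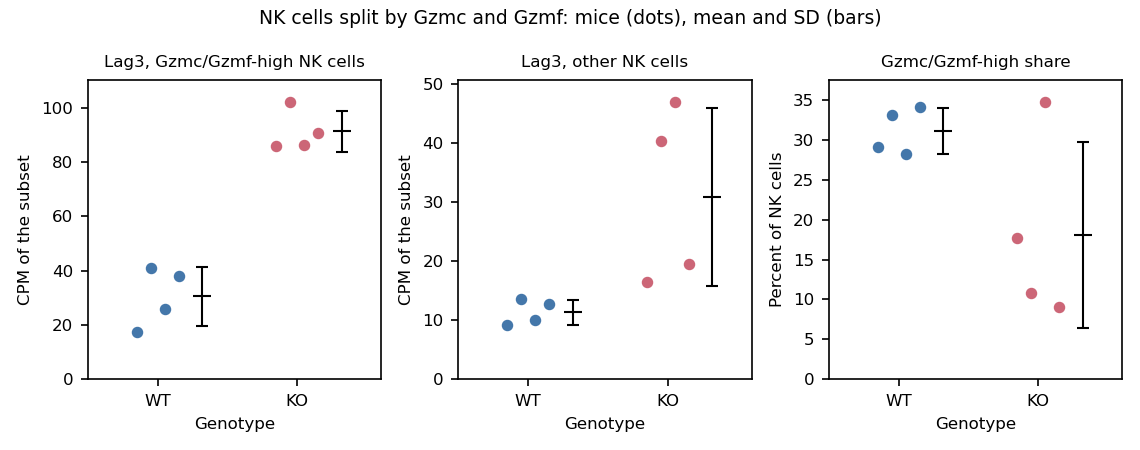
Lag3 level (CPM of the subset) in NK cells high in Gzmc and Gzmf and in the other NK cells, and the percent of NK cells in the high subset. Dots are mice, bars the mean and SD. The CaMKK2 KO mice lie above the WT mice in both subsets, 85.9 to 102 against 17.5 to 40.9 CPM in the high cells. Several values rest on few UMIs.

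Macrophages had the most members called, 3 of 7, against 2.6% of 11124 genes, and 5 members had mice that did not overlap, against 14.3% of all genes. The 3 include Ctla4, which was near the limit of detection there. Havcr2, a receptor that macrophages express as do T cells, stood at 84.3, 80.7, 75.3 and 77.3 CPM in the WT mice and 93.1, 117, 107 and 124 CPM in the CaMKK2 KO mice. The CaMKK2 KO mice were all above the WT mice, and Havcr2 rose by a small amount (log2 difference 0.47 (SE 0.10), adjusted p = 0.0432). It passed in 10 of 18 alternatives. It lost its call without WT mouse 1, 2, 3 or 4 or CaMKK2 KO mouse 2 or 4 (adjusted p = 0.0561, 0.0907, 0.111, 0.121, 0.125 and 0.105), with outlying cells kept (adjusted p = 0.0509) and among macrophages without microglia marker UMIs (log2 difference 0.60, adjusted p = 0.0676). Ctla4 stood at 0.924, 0.996, 0.822 and 1.32 CPM in the WT mice and 3.59, 2.7, 4.25 and 7.54 CPM in the CaMKK2 KO mice, with no overlap, and rose (log2 difference 2.05 (SE 0.36), adjusted p = 0.0165). This gene was near the limit of detection: 30 WT and 81 CaMKK2 KO UMIs were found, and 0.429% of macrophages had a UMI at 2000 UMIs per cell, below the 0.833% of B cells. The level is therefore not read as expression. It passed in 13 of 16 alternatives. With Scrublet doublets kept, WT held 95 and CaMKK2 KO 116 UMIs and the call was lost (log2 difference 0.92, adjusted p = 0.477). It was lost as well without WT mouse 3 (adjusted p = 0.0552) and with cells weighted equally (adjusted p = 0.0515). The Cd3d, Cd3e and Cd3g UMIs summed to 6.004 to 8.97 CPM in WT and 9.82 to 12.3 CPM in CaMKK2 KO macrophages. Among macrophages without any T cell marker UMI the difference was 2.04 (adjusted p = 0.0383).

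Lag3 moved the other way in macrophages. It stood at 16.6, 36.4, 27.6 and 23.2 CPM in the WT mice and 11.5, 4.91, 8.94 and 15.1 CPM in the CaMKK2 KO mice, with no CaMKK2 KO mouse reaching the WT range, and it fell (log2 difference -1.39 (SE 0.31), adjusted p = 0.0472). It passed in 6 of 18 alternatives. Leaving out any 1 mouse other than WT mouse 1 took the adjusted p to between 0.0526 and 0.105, with log2 differences of -1.57 to -1.18. The call was also lost with TMM scaling (adjusted p = 0.0604), at least 200 UMIs (0.0518), cells weighted equally (0.102), outlying cells kept (0.054) and among macrophages without any T cell marker UMI (log2 difference -1.39, adjusted p = 0.0501). Microglia are rich in Lag3, and the 7 microglia markers summed to 929.9 to 1074 CPM in WT and 505 to 829 CPM in CaMKK2 KO macrophages. Among the 259 WT and 360 CaMKK2 KO macrophages without a UMI of 6 microglia markers, Lag3 stood at 19.7 to 31.8 CPM in WT and 3.29 to 11.3 CPM in CaMKK2 KO mice (log2 difference -1.87 (SE 0.32), adjusted p = 0.0122). The part of the microglia markers in the difference was not tested. Of the other macrophage members, Pdcd1 had a log2 difference of 0.26 (adjusted p = 0.74) and Entpd1 of 0.11 (adjusted p = 0.718).

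In microglia, Lag3 ran in the opposite direction, at 214, 282, 224 and 179 CPM in the WT mice and 309.9, 329, 334 and 345 CPM in the CaMKK2 KO mice. All CaMKK2 KO mice exceeded all WT mice, against 10.4% of all genes without overlap in either direction, and Lag3 did not pass (log2 difference 0.55 (SE 0.15), adjusted p = 0.0795). With TMM scaling the adjusted p was 0.0307. Without WT mouse 2 it was 0.0421. The genotype difference itself differed between the classes: it was higher in microglia than in macrophages by 1.92 on the log2 scale (SE 0.26, adjusted p = 0.00256, edgeR interaction), the 1 of 7 members called, against 0.182% of 11518 genes. It was called whichever mouse was left out, with values of 1.70 to 2.11. Between CD8 and regulatory T cells and between CD8 T cells and NK cells, 0 of 10 members differed in the genotype effect, against 0.196% and 0.391% of all genes. Between macrophages and classical monocytes it was 0 of 7, against 0.762%. Tox differed most between NK and CD8 T cells (1.44, adjusted p = 0.131), and passed without CaMKK2 KO mouse 3 (2.13, adjusted p = 0.00191). Without that mouse 71 of 9878 genes were called, against 40 of 10227 with all mice.

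**Figure D5:**
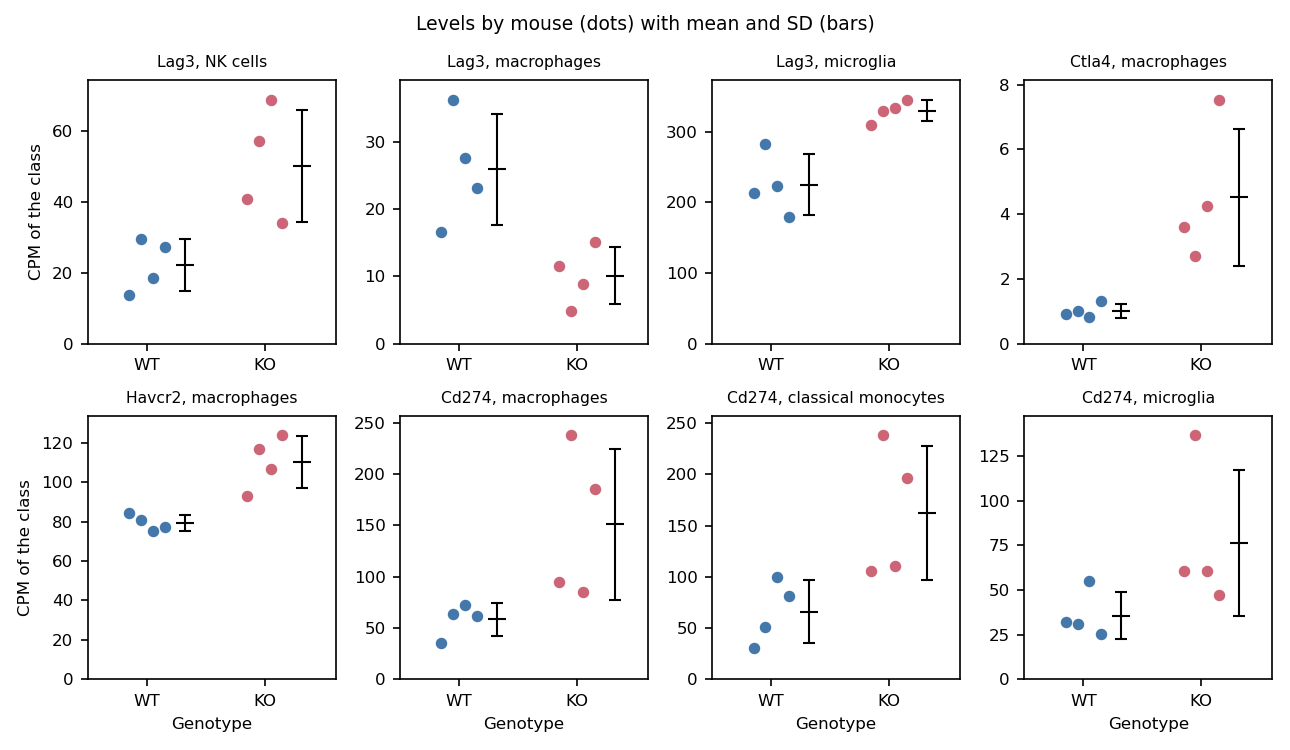
Level (CPM of the class) in each mouse for Lag3 in NK cells, macrophages and microglia, Ctla4 and Havcr2 in macrophages, and Cd274 in macrophages, classical monocytes and microglia. Dots are mice, bars the mean and SD (n = 4); Lag3 is lower in CaMKK2 KO macrophages and higher in CaMKK2 KO NK cells and microglia, and each axis has its own scale.

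Cd274 had higher mean values in macrophages, classical monocytes and microglia of CaMKK2 KO mice, at a spread that left it short of the threshold in edgeR. Cd274 in macrophages stood at 35.6, 63.9, 72 and 61.2 CPM in the WT mice and 94.8, 238, 85.1 and 186 CPM in the CaMKK2 KO mice, without overlap (log2 difference 1.37 (SE 0.34), adjusted p = 0.0628). In classical monocytes it stood at 30.7, 51, 100.1 and 81.5 CPM in the WT mice and 106, 238, 110.3 and 196 CPM in the CaMKK2 KO mice, again without overlap (log2 difference 1.24 (SE 0.34), adjusted p = 0.0924). Mice did not overlap, in either direction, for 14.3% of all genes in macrophages and 10.5% in classical monocytes. The highest CaMKK2 KO values of Cd274 in both classes were those of mice 2 and 4. In microglia it stood at 31.9, 30.8, 55 and 25 CPM in the WT mice and 60.7, 137, 60.5 and 47.1 CPM in the CaMKK2 KO mice. CaMKK2 KO mouse 4 lay below WT mouse 3, and mouse 2 was far above the rest (log2 difference 1.14 (SE 0.31), adjusted p = 0.0908). With DESeq2 the adjusted p-values were 0.00115, 0.0332 and 0.024, in fits that called 691 of 11124, 388 of 9708 and 198 of 9302 genes. Without CaMKK2 KO mouse 3, Cd274 passed in macrophages (adjusted p = 0.0319), where 462 of 10931 genes were called. Without WT mouse 3 it passed in microglia (adjusted p = 0.0469), where 180 of 9179 genes were called. With the stricter gate, the microglial difference was 0.38 (adjusted p = 0.532), and without CaMKK2 KO mouse 2 it was 0.75 (adjusted p = 0.222). The edgeR calls were 0 of 5 members in microglia (2 with an unadjusted p under 0.05; 2 called with DESeq2) and 0 of 5 in classical monocytes (2; 1), against 1.82% of 9302 and 2.18% of 9708 genes. Their remaining log2 differences were 0.61 for Pdcd1, 0.18 for Havcr2 and 0.17 for Entpd1 in microglia (adjusted p-values of 0.634 to 0.755) and 0.98 for Ctla4, -0.26 for Havcr2 and -0.03 for Entpd1 in classical monocytes (0.338 to 0.981).

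Pdcd1lg2 was also higher in the macrophages and classical monocytes of CaMKK2 KO mice without passing. The gene was low there, with 262 UMIs in 2820 macrophages and 123 in 2125 classical monocytes. Its WT values lay near the limit of detection. In macrophages it stood at 0.808, 4.15, 3.95 and 1.91 CPM in the WT mice and 8.89, 19.6, 4.25 and 10.1 CPM in the CaMKK2 KO mice (log2 difference 2.01 (SE 0.54), adjusted p = 0.0795). In classical monocytes it stood at 2.05, 2.07, 2.02 and 4.14 CPM in the WT mice and 8.73, 6.09, 6.55 and 4.66 CPM in the CaMKK2 KO mice (log2 difference 1.37 (SE 0.36), adjusted p = 0.0835). The highest CaMKK2 KO value in these monocytes was that of mouse 1 and the lowest that of mouse 4, unlike Cd274. Without CaMKK2 KO mouse 3 the adjusted p in macrophages was 0.0372, in a fit that called 462 of 10931 genes. No mice overlapped in either class, and 14.3% of all genes in macrophages and 10.5% in classical monocytes behaved so. In mature dendritic cells, the class with the highest level of both ligands, Pdcd1lg2 stood at 45.4, 151, 153 and 75.3 CPM in the WT mice and 205, 163, 223 and 193 CPM in the CaMKK2 KO mice, without overlap, against 6.15% of all genes (log2 difference 0.65 (SE 0.27), adjusted p = 0.347). Without WT mouse 1 the log2 difference was 0.60 (adjusted p = 0.386). Cd274 in these cells stood at 454, 590.0, 637 and 587 CPM in the WT mice and 576, 700.4, 606 and 871 CPM in the CaMKK2 KO mice, and the genotypes overlapped (log2 difference 0.24 (SE 0.20), adjusted p = 0.789). Mature dendritic cells numbered 4 in WT mouse 1 and 14 to 38 in the other mice, and 0 of 3 members were called with edgeR (1 with an unadjusted p under 0.05; 0 with DESeq2), against 0.565% of 4424 genes. In type 2 dendritic cells, 0 of 5 members were called (1; 0) and none had mice that did not overlap, against 1.03% of 7547 genes called and 7.75% not overlapping. Cd274 stood at 69.4, 50.6, 66.9 and 86.9 CPM in the WT mice and 98.5, 86.8, 59.3 and 100.2 CPM in the CaMKK2 KO mice (log2 difference 0.30 (SE 0.22), adjusted p = 0.623). The remaining log2 differences were 0.08 for Pdcd1lg2, 1.2 for Lag3, -0.46 for Havcr2 and 0.35 for Entpd1 in type 2 dendritic cells (adjusted p-values of 0.289 to 0.966), and -0.13 for Pdcd1 in mature dendritic cells (adjusted p = 0.987).

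Markers within the myeloid classes differed between the genotypes. In classical monocytes, Ly6c2 stood at 1492 and 3759 CPM, Chil3 at 7476 and 2503 CPM and Vcan at 261 and 78.7 CPM in WT and CaMKK2 KO mice pooled. The 4 classical monocyte markers summed to 352 to 1379.8 CPM in WT and 1296 to 5042 CPM in CaMKK2 KO macrophages, and to 101 to 425 and 450.2 to 1268 CPM in microglia. Their part in the Cd274 and Pdcd1lg2 differences was not tested. Among macrophages without microglia marker UMIs, Cd274 had a log2 difference of 0.83 (adjusted p = 0.148).

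Around the members, 4 lists were examined: 24 partners (ligands and related receptors), 19 exhaustion regulators, 10 genes of terminal exhaustion and 12 interferon gamma response genes. Among the partners, Nt5e, the CD73 gene that acts after CD39, fell in 3 lymphoid classes. In regulatory T cells it stood at 166 to 381 CPM in WT and 5.27 to 43.2 CPM in CaMKK2 KO mice (log2 difference -2.86, adjusted p = 6.80e-05). In conventional CD4 T cells it stood at 149 to 548 CPM in WT and 31.9 to 76.8 CPM in CaMKK2 KO mice (log2 difference -2.7, adjusted p = 0.00168). In NK cells it stood at 33.1 to 44.8 CPM in WT and 9.9 to 17.4 CPM in CaMKK2 KO mice (log2 difference -1.4, adjusted p = 0.000513). The macrophage marker sums were lower without overlap in the same classes of CaMKK2 KO mice: 213 to 381 against 116 to 177 CPM in regulatory T cells, 239 to 377 against 77.4 to 166 CPM in conventional CD4 T cells and 136 to 167 against 83.5 to 119 CPM in NK cells. Their part in the Nt5e differences was not tested. Entpd1 itself was not called in any of them. Cd200, the ligand of an inhibitory myeloid receptor, rose in conventional CD4 T cells (29.9 to 154 CPM in WT and 224 to 385 CPM in CaMKK2 KO mice, log2 difference 2.003, adjusted p = 0.0245), and Klrg1 rose in NK cells (log2 difference 1.06, adjusted p = 0.0195). Cd200r1 fell in CD8 T cells (log2 difference -1.54, adjusted p = 0.0131), with overlapping mice. In myeloid cells, Cd47, the do-not-eat-me signal, rose in macrophages (log2 difference 0.57, adjusted p = 0.033), and Cd80, a CTLA-4 ligand, and Cd244a fell in classical monocytes (log2 difference -1.33, adjusted p = 0.0137, and log2 difference -0.69, adjusted p = 0.0481). Nt5e kept its call in all 3 classes whichever mouse was left out and lost it in both T cell classes with cells weighted equally, whereas Cd47, Cd200, Cd200r1, Klrg1, Cd80 and Cd244a each lost theirs without at least 1 of the mice. Over all classes, 0 to 2 partners were called per class of the 10 to 17 tested, against 0.438 to 4.07% of all genes. Their medians were -0.19 to 0.21 beside medians of -0.14 to 0.08 over all genes.

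Of the exhaustion regulators, the NR4A factors, which are induced by antigen receptor and calcium signaling, were lower wherever they were called. Nr4a2 fell in CD8 T cells (244 to 282 CPM in WT and 103 to 185 CPM in CaMKK2 KO mice, log2 difference -0.87, adjusted p = 0.0116), the 1 of 17 regulators called there, against 0.904% of all genes. The macrophage markers summed to 141 to 162 CPM in WT and 88.0 to 119 CPM in CaMKK2 KO CD8 T cells, and their part was not tested. Nr4a1 fell in regulatory T cells (log2 difference -1.17, adjusted p = 0.0327), macrophages (log2 difference -1.11, adjusted p = 0.0159) and type 2 dendritic cells (log2 difference -1.02, adjusted p = 0.00803). All 3 family members fell in classical monocytes: Nr4a1, at 340.1 to 443 CPM in WT and 108 to 205 CPM in CaMKK2 KO mice (log2 difference -1.3, adjusted p = 0.00606), Nr4a2 (log2 difference -1.24, adjusted p = 0.0103) and Nr4a3 (log2 difference -1.72, adjusted p = 0.00208). The calls of the classical monocytes held in every alternative, that of Nr4a2 in CD8 T cells held without any 1 mouse but not with DESeq2, and those of Nr4a1 elsewhere were lost without at least 1 mouse. Id2 rose in NK cells (log2 difference 0.38, adjusted p = 0.045) and fell in microglia (log2 difference -1.18, adjusted p = 0.019), and Rbpj, the effector of Notch signaling, fell in microglia (log2 difference -0.81, adjusted p = 0.0193). Regulators called were 3 of 14 in classical monocytes (2.18% of all genes), 2 of 12 in microglia (1.82%) and 1 of 15 in regulatory T cells (0.446%). They were 1 of 14 in macrophages (2.6%), 1 of 13 in type 2 dendritic cells (1.03%) and 1 of 16 in NK cells (4.07%), and 0 in conventional CD4 T cells and mature dendritic cells. Their medians were -0.39 to 0.17 beside -0.14 to 0.08 over all genes.

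Of the terminal exhaustion genes, 0 of 9 were called in CD8 T cells, where their median log2 difference was 0.42 beside 0.06 over all genes. This list and the exhaustion regulators are named for T cells. Their changes in NK or myeloid cells are not read as exhaustion. In NK cells 4 of 8 rose and 0 fell, against 254 and 131 of 9459 genes, with a median of 0.62 beside 0.08. The genes that rose were the chemokines Ccl3 (log2 difference 2.25, adjusted p = 0.0413) and Ccl4 (log2 difference 2.23, adjusted p = 0.031), whose mice overlapped, and Cd7 (log2 difference 0.68, adjusted p = 0.0481) and Lgals1 (log2 difference 0.56, adjusted p = 0.0493). In microglia the same Ccl3, Ccl4 and Lgals1 fell, against 82 of 9302 genes (log2 difference -0.95, adjusted p = 0.0195, log2 difference -0.95, adjusted p = 0.0291 and log2 difference -0.96, adjusted p = 0.0357). The median was -0.95 over 6 genes beside -0.14. Ccl3 also fell in macrophages (log2 difference -1.001, adjusted p = 0.049), and Itgae fell in type 2 dendritic cells (log2 difference -2.08, adjusted p = 0.00965). Cxcr6, a chemokine receptor of tissue-resident T cells, rose in regulatory T cells (0 to 83.9 CPM in WT and 153 to 295 CPM in CaMKK2 KO mice, log2 difference 1.94, adjusted p = 0.00152). Of these, the call of Cxcr6 alone held whichever mouse was left out.

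The interferon gamma response genes act upstream of or beside PD-L1 induction. Their median exceeded that of all genes in every class but conventional CD4 T cells (-0.14 beside -0.02). It was 0.51 beside -0.03 in regulatory T cells, 0.39 beside 0.08 in NK cells and 0.30 beside 0.06 in CD8 T cells. Mature dendritic cells had 0.20 beside 0.07, and the other myeloid classes 0.67 to 1.05. Ciita, the master activator of MHC class II, the ligand of LAG-3, rose in macrophages (6.12 to 39.6 CPM in WT and 166 to 288 CPM in CaMKK2 KO mice, log2 difference 2.9, adjusted p = 0.0105). It rose in microglia as well (1.11 to 9.48 CPM in WT and 35.6 to 168 CPM in CaMKK2 KO mice, log2 difference 4.28, adjusted p = 0.00191). It rose in classical monocytes too (8.2 to 76.1 CPM in WT and 239.8 to 269 CPM in CaMKK2 KO mice, log2 difference 2.32, adjusted p = 0.00929). The calls of Ciita in macrophages and microglia held whichever mouse was left out, and that in classical monocytes was lost without WT mouse 2 (log2 differences of 2.09 to 2.63 over the mice left out). In microglia 3 of 12 list genes rose, against 87 of 9302 genes. They were Irf1 (log2 difference 1.28, adjusted p = 0.0197) and Gbp2 (log2 difference 2.78, adjusted p = 0.0273) with Ciita, and the median was 0.83 beside -0.14 over all genes. Macrophages had 1 of 12 called (2.6% of all genes) with a median of 1.05 beside -0.09. Classical monocytes had 1 of 12 (2.18%) with 0.67 beside a value close to 0, and type 2 dendritic cells 0 of 12 (1.03%) with 1.02 beside 0.05. In mature dendritic cells Cxcl9 rose (0 to 918 CPM in WT and 989.6 to 3459 CPM in CaMKK2 KO mice, log2 difference 2.93, adjusted p = 0.0462). In NK cells Cxcl9 (log2 difference 2.35, adjusted p = 0.00615) and Ifngr1 (log2 difference 0.59, adjusted p = 0.0382) rose and Cxcl10 fell (log2 difference -1.58, adjusted p = 0.0106), while 0 of 10 were called in CD8, regulatory and conventional CD4 T cells. Cxcl9 stood low in NK cells, at 1.32 to 4.54 CPM in WT and 12 to 35.3 CPM in CaMKK2 KO mice, and its source was not tested. The NK cell calls of Cxcl9 and Cxcl10 held whichever mouse was left out; those of Ifngr1, of Irf1 and Gbp2 in microglia and of Cxcl9 in mature dendritic cells did not.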

How the data were processed

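Single-cell RNA of live CD45+ glioma infiltrates was counted in 1 library per genotype. The deposited matrices hold UMI counts per gene and barcode, which the authors made with bcl2fastq 2.20, Cell Ranger 4.0.0 and STAR 2.7.5c on mm10, per the labels and file headers; hashtag counts stand in the same matrices. Mice were assigned with HTODemux (Seurat 5.3.0, quantile 0.99). Of 6689 WT and 7271 CaMKK2 KO barcodes, 667 and 508 were hashtag doublets and 48 and 67 negative. Cells 3 median absolute deviations out (725 and 929, scuttle 1.12.0) and Scrublet doublets (63 and 79, scanpy 1.11.5) were left out. Classes were gated on UMIs of marker genes per 10000; the markers were listed first, and the cutoffs were set from the marker distributions in these cells. UMI counts were summed per mouse and class (12210669 to 20082815 UMIs per mouse over all its cells) and compared with the quasi-likelihood test of edgeR 4.0.16, with the class total as library size, at least 50 UMIs per gene, Benjamini-Hochberg adjustment over all genes tested in a class and a threshold of 0.05. Single values were compared by exact permutation over mice, whose smallest p is 0.0286 for 4 against 4. On simulated data with 200 genes changed 3-fold, the edgeR step recovered 89.5% of them over 8737 genes in CD8 T cells and 87% over 9459 in NK cells. It recovered 85% over 11124 in macrophages and 43% over 5475 in conventional CD4 T cells. Of the calls in the 9 classes, 2.27 to 9.25% were false (9.14% in CD8 T cells, 5.95% in NK cells, 4.49% in macrophages). Smaller changes were not simulated, so these shares do not give the recovery at the size of most member differences. Alternatives were DESeq2 1.42.0, TMM scaling, other count minimums, limma 3.58.1 on mean CPM with cells weighted equally, other filters and gates, and leaving out each mouse; leaving out macrophages with T cell or microglia marker UMIs was added after seeing the data. Pattern neighbors were the 3 genes of highest r among those with at least 200 UMIs. All members with 50 UMIs in a class were named, and up to 4 called genes per list and class. The members, the gene lists and the tests were chosen with earlier results of these data known.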

Additional observations from a re-analysis of the deposited data

Results flagged for a closer look

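Among 117 groups of 4 mice, 5 held a value of a member far from the others, and about 1 in 20 groups is expected to by chance. Cd274 in CD8 T cells of CaMKK2 KO mouse 4 stood at 63.6 CPM, against 29.7 to 33.3 CPM in the other CaMKK2 KO mice. Cd274 in microglia of CaMKK2 KO mouse 2 stood at 137 CPM, against 47.1 to 60.7 CPM. Lag3 in regulatory T cells of WT mouse 2 stood at 259 CPM, against 113 to 137 CPM in the other WT mice. Pdcd1lg2 in classical monocytes of WT mouse 4 stood at 4.14 CPM, against 2.02 to 2.07 CPM. Pdcd1 in mature dendritic cells of WT mouse 1 stood at 227 CPM in 4 cells, against 15.1 to 43.7 CPM.

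The difference between CaMKK2 KO and WT mice in Lag3 was higher in microglia than in macrophages by 1.92 on the log2 scale, by the interaction test of edgeR.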

How the results depend on the processing

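The number of members called moved beyond 1.5 times under these settings. Calls over all genes of the same fit are in parentheses. Without a filter on low counts the number was 1 in CD8 (382 of 14750), regulatory (125 of 13239) and conventional CD4 T cells (100 of 13137) and classical monocytes (397 of 16069). It was 2 in NK cells (815 of 15368) and microglia (433 of 15393) and 5 in macrophages (463 of 17617). With DESeq2 it was 5 in macrophages (691 of 11124), 2 in microglia (198 of 9302) and 1 in classical monocytes (388 of 9708). With TMM scaling it was 1 in microglia (167 of 9302), and with at least 200 UMIs 1 in macrophages (234 of 9283). With cells weighted equally it was 0 in NK cells (206 of 9459) and 1 in macrophages (297 of 11124), and with outlying cells kept 3 (530 of 9819) and 1 (298 of 11307). It was 1 among macrophages without microglia marker UMIs (102 of 8529), an alternative chosen after seeing the data. Of the neighboring classes, 16 of 100 pairs differed with outlying cells kept and 13 of 80 with the stricter gate. Pairs at the smallest p pass or fail the adjustment together, so a shift in few pairs can move this count from 0. Leaving out 1 mouse gave 0 to 1 members in regulatory T cells (1 without WT mouse 2, with 18 of 4937 genes called). It gave 1 to 3 in NK cells (3 without CaMKK2 KO mouse 3, with 1041 of 9050). It gave 0 to 4 in macrophages (0 without WT mouse 3, with 152 of 10969, and 4 without CaMKK2 KO mouse 3, with 462 of 10931). It gave 0 to 1 in microglia (1 without WT mouse 2, with 97 of 8826, or WT mouse 3, with 180 of 9179). It gave 0 to 1 interactions between CD8 and regulatory T cells (Ctla4, -0.96, adjusted p = 0.0185 without WT mouse 3; Havcr2, -1.84, adjusted p = 0.0318 without CaMKK2 KO mouse 3), between CD8 T cells and NK cells, and between macrophages and classical monocytes (Havcr2, -0.85, adjusted p = 0.0478 without WT mouse 4 and -0.90, adjusted p = 0.0294 without CaMKK2 KO mouse 1). The differences in receptors per CD8 T cell ranged from -0.107 to 0.241, in the Havcr2 share from -5.84 to 5.30 percentage points and in the Slamf6 share from -10.5 (without WT mouse 2, exact permutation p = 0.0286) to -2.17. With 4000 and 1000 UMIs per cell, no thinning, outlying cells kept and the stricter gate, the Havcr2 share differed by 7.83, 3.78, 11.3, 6.29 and 7.30 points and the Slamf6 share by -6.82, 0, -7.84, -0.20 and -8.06 points (exact permutation p of 0.0571 to 1). The cause was not tested.

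Log2 differences of members that were not called changed sign as follows. With cells weighted equally they were 0.15 for Tigit and 0.0485 for Cd96 in CD8 T cells, -0.27 for Tigit in regulatory T cells, 0.30 for Entpd1 in conventional CD4 T cells, -0.0515 for Pdcd1 and -0.22 for Havcr2 in microglia, 0.0322 for Entpd1 in classical monocytes and -0.0488 for Pdcd1lg2 in type 2 dendritic cells. With the stricter gate they were 0.13 for Ctla4, 0.0234 for Tox and 0.35 for Entpd1 in conventional CD4 T cells and -0.0417 for Pdcd1lg2 in type 2 dendritic cells. Cd274 in NK cells was -0.0471 with DESeq2, -0.051 with TMM scaling and -0.0106 with outlying cells kept, where Ctla4 in NK cells was 0.0947, and Entpd1 in classical monocytes was 0.00559 with DESeq2. Without 1 mouse, the ranges that crossed 0 were -0.17 to 0.00887 for Pdcd1lg2 and -0.19 to 0.026 for Cd96 in CD8 T cells; -0.18 to 0.67 for Tigit, -0.29 to 0.20 for Cd96 and -0.14 to 0.29 for Entpd1 in regulatory T cells; -0.60 to 0.14 for Entpd1 in conventional CD4 T cells; -0.0714 to 0.17 for Cd274, -0.40 to 0.0344 for Ctla4 and -0.0378 to 0.35 for Tigit in NK cells; -0.0518 to 0.23 for Entpd1 in macrophages; -0.17 to 0.10 for Entpd1 in classical monocytes; -0.11 to 0.60 for Pdcd1lg2 in type 2 dendritic cells; and -0.50 to 0.30 for Pdcd1 in mature dendritic cells.

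Under alternatives other than leaving out a mouse, 450 member comparisons kept their direction and side of the threshold, 17 changed sign, 17 gained and 10 lost a call; without 1 mouse the numbers were 436, 29, 7 and 14. Of the list gene calls, 242 were kept and 68 lost under the former and 185 kept and 117 lost without 1 mouse. The calls over all genes ranged from 18 to 382 in CD8 T cells, 3 to 125 in regulatory T cells, 8 to 100 in conventional CD4 T cells, 154 to 1041 in NK cells, 102 to 691 in macrophages, 83 to 433 in microglia, 71 to 397 in classical monocytes, 24 to 426 in type 2 dendritic cells and 1 to 131 in mature dendritic cells. No paired analysis was possible because the labels give no pairing of WT with CaMKK2 KO mice, and a hashtag number marks a different mouse in each library. Depth limited members under 50 UMIs in a class, and shares of cells with a UMI cover counting error only.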
